A study of Mus musculus with 12 samples.

Results

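Melanocyte genes and Mitf are 10 genes that pigment cells are known for: the transcription factors Mitf and Sox10, the melanosome proteins Mlana and Pmel, the pigment enzymes Tyr, Tyrp1 and Dct, and the receptors Kit, Mc1r and Ednrb. They were chosen by name, as the probe sets whose only gene symbol is one of the 10. That gave 11 probe sets of the 21789 with 1 symbol, and 10 genes of 19938. Mitf has 2 probe sets, 10540248, which is used for the gene, and the dimmer 10540265. Each of the other 9 genes has 1.

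Expression was measured on Affymetrix whole-transcript arrays in epidermal cells sorted from mouse dorsal skin, with 3 arrays in each of 4 groups. The first 6 arrays hold cells of the bulge, where the stem cells of hair follicles reside, from mice aged 18 to 19 days that carry the fluorescent reporter Venus, which in this study follows the clock gene Per1. Cells bright for alpha6 integrin and positive for CD34 were divided by Venus: clock-positive cells were bright and clock-negative cells dim. Each sample is a pool of about 20 mice. The other 6 arrays hold basal cells of the interfollicular epidermis (IFE) of mice aged 1 year, wild type or Bmal1 KO, with 5 mice per sample. One label field gives the gate of bright Venus for clock-negative cells too, and groups were therefore taken from sample titles and the design text. The strain, the deleter of Bmal1 and the hour of collection are not given in the sources used here. Nor is it stated that the pools of a group came from separate mice, so p-values measure the spread between these samples.

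Values are log2 intensities, so a difference of 1 is a 2-fold change of intensity, and they show how bright a probe set is, not how many cells express the gene. In sorted pools, fewer cells of a type and less RNA per cell cannot be told apart. Array medians lay between 6.82 and 7.01 in the bulge set and between 7.75 and 7.80 in the epidermis set. The sets appear to have been normalized apart, so levels are compared only within a set. The knocked-out gene, Bmal1 (Arntl on the array), read 9.27 to 9.47 in wild type and 9.55 to 9.85 in Bmal1 KO, and this checks nothing, because the place of its probe set relative to the deleted part was not analysed here. Nr1d1, a direct target of BMAL1, was at 12.28 to 12.60 in wild type and 8.39 to 8.63 in KO, but in the bulge it was at 10.25 to 10.31 in clock-positive and 10.17 to 10.28 in clock-negative cells, a change of 0.08 ± 0.06 (limma adjusted p = 0.298). Per1 was at 9.72 to 9.81 in clock-positive and 9.19 to 9.36 in clock-negative cells, and at 9.68 to 10.42 in wild type and 9.02 to 10.30 in KO, a change of −0.51 ± 0.33 that did not pass (limma adjusted p = 0.844). Bulge stem cell markers averaged 10.31 to 10.33 on the clock-positive and 9.31 to 9.41 on the clock-negative arrays, and basal IFE markers averaged 12.93 to 13.02 on the epidermis arrays.

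Melanocytes arise from the neural crest and, in mouse skin, live mainly in the hair follicle, where their stem cells sit in the bulge and the hair germ next to the keratinocyte stem cells. MITF is a basic helix-loop-helix leucine zipper factor and the central regulator of the lineage. With SOX10 it drives Tyr, Tyrp1, Dct, Pmel and Mlana, and signals from KIT, MC1R and EDNRB reach it from ligands that keratinocytes and other skin cells make. Mitf is not confined to pigment cells: it has several promoters and is also expressed, for example, in osteoclasts, mast cells and the retinal pigment epithelium. BMAL1 with CLOCK binds a related DNA sequence, the E-box CACGTG.

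MITF is known to bind the M box, TCATGTG, in promoters of pigment genes, and the promoters of members that carry it are shown here because they set the pigment enzymes and Mc1r apart from Mitf itself in sequence. Promoters come from RefSeq, assembly GRCm38.p6, for 7 of the 10 genes; Mlana, Pmel and Sox10 were not among them. Each line below gives the 250 bases before the transcription start, 5′ to 3′ on the gene's strand, with TCATGTG or its reverse complement in capitals. The Tyr promoter is chr7:87493513-87493762 on the minus strand, that of Tyrp1 chr4:80833963-80834212 on the plus strand, that of Dct chr14:118052247-118052496 on the minus strand and that of Mc1r chr8:123406832-123407081 on the plus strand. For Mitf the most downstream of 3 starts is shown, chr6:97991533-97991782 on the plus strand, which lies inside the gene as read from its other starts.
Tyr: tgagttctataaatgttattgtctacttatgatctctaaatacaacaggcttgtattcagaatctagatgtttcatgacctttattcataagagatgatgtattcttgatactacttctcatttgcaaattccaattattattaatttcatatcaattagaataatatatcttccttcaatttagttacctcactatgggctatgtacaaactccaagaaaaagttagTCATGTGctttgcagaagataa
Tyrp1: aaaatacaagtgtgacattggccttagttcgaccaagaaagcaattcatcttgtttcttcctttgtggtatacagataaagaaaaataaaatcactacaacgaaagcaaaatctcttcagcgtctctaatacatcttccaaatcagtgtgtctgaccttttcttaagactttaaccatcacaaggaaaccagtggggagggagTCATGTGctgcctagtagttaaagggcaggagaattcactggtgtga
Dct: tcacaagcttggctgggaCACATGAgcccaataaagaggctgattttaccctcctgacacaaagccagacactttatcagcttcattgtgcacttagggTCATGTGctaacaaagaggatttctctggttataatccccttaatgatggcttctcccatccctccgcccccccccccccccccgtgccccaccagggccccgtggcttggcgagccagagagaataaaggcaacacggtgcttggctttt
Mc1r: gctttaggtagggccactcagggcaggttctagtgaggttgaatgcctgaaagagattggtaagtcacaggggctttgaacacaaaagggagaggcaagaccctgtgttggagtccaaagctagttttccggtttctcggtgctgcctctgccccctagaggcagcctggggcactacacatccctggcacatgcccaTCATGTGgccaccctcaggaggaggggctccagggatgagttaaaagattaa
Mitf: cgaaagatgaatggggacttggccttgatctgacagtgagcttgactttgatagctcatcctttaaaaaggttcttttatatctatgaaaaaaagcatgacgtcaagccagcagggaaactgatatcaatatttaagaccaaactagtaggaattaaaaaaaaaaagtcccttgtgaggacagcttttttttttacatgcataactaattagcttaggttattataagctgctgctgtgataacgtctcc

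TCATGTG begins 22 bases before the start of Tyr, 47 before that of Tyrp1, 52 before that of Mc1r and 151 before that of Dct, which also holds the reverse complement CACATGA, 232 bases before its start. None of the 3 promoters of Mitf, the 2 of Kit or that of Ednrb holds it. Over all 32851 RefSeq promoters of the same 300 bases (250 before to 50 after the start, both strands), TCATGTG was in 3.77%, its core CATGTG in 14.2%, the E-box CACGTG in 7.15% and TCACGTG, which contains that E-box, in 3.77%. CACGTG and TCACGTG were in none of the 10 promoters of these genes. A match is a description of the letters in this window, and no match says nothing about binding elsewhere.

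The bulge comparison asks what sets bulge cells of bright Venus apart from those of dim Venus. Mitf was 2.36-fold higher in clock-positive cells, while Mlana and Pmel, the melanosome proteins whose genes MITF is known to drive, were 1.68-fold and 1.51-fold lower. Of the 8 members bright enough to test, 1 rose and 7 fell at an adjusted p under 0.05 (limma, Benjamini-Hochberg over 13956 genes). In this comparison 63.5% of all genes tested passed, 45.2% higher and 18.3% lower, so a call alone is common here. The members' median change was −0.31 on the log2 scale, beside 0.147 over all genes tested. Tyr and Tyrp1 lay below the limit of 6.27 under which the dimmest 30% of genes were left out.

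**Figure D1:**
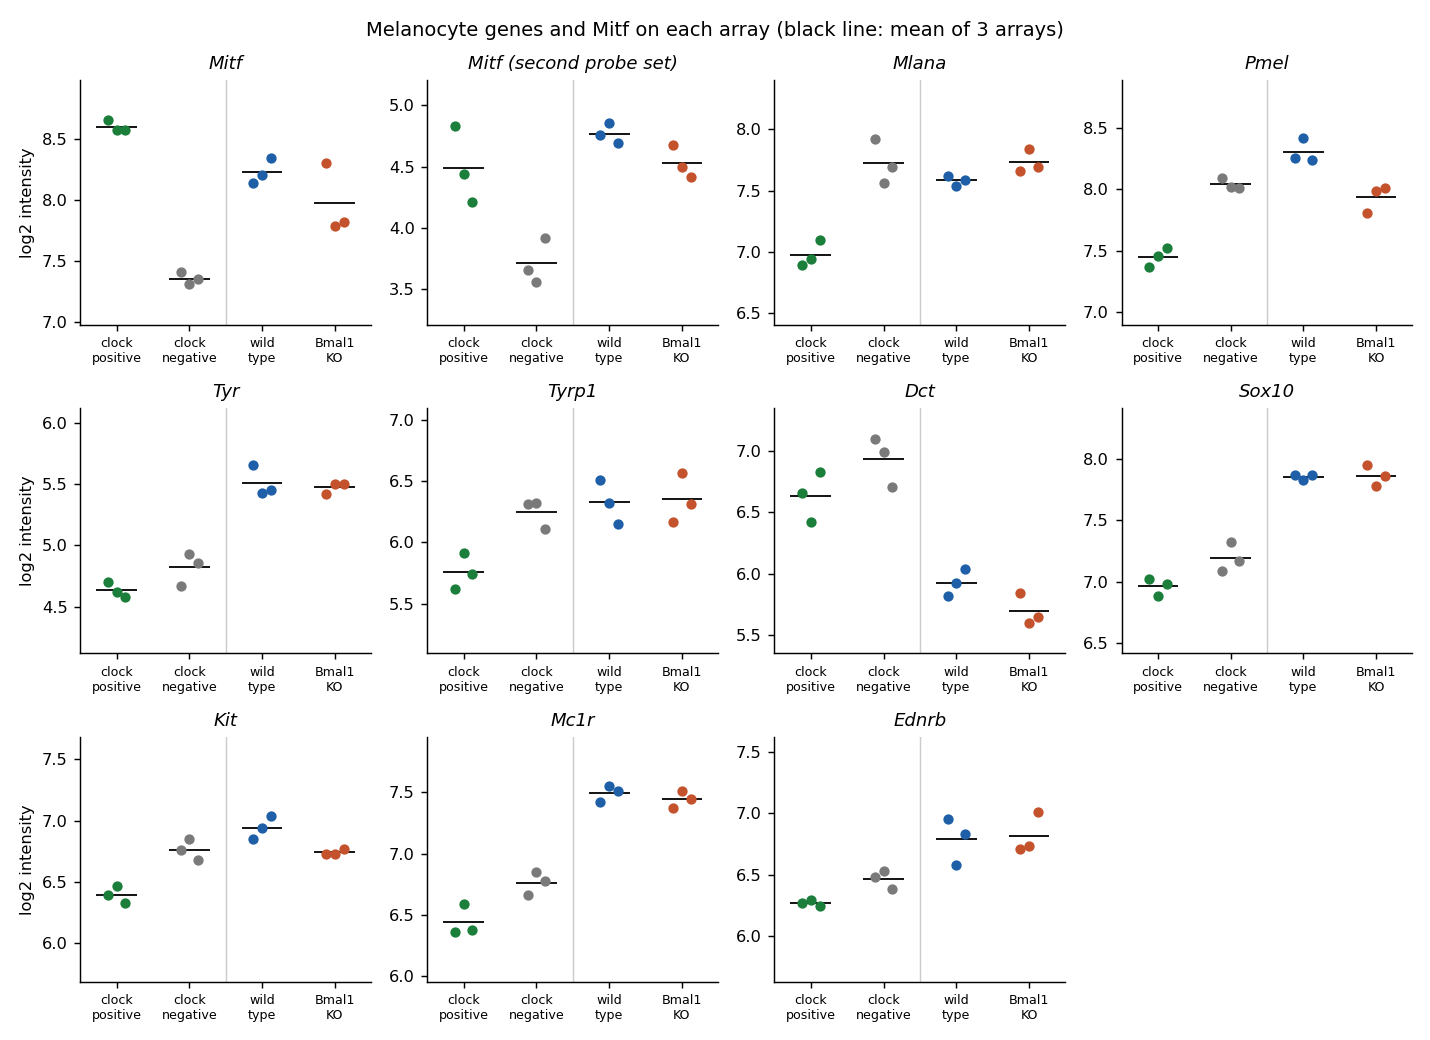
Log2 intensity (y axis, a range of its own in each panel) of the 11 probe sets on each of the 12 arrays, by group; each point is 1 array and each line the mean of 3. A grey line parts the bulge set from the epidermis set, whose levels are not compared; Mitf lies at 8.57 to 8.65 in clock-positive and 7.31 to 7.41 in clock-negative cells, and Mlana and Pmel lie the other way round.

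Mitf, the lineage's central transcription factor, read 8.65, 8.57 and 8.57 on the clock-positive arrays and 7.41, 7.31 and 7.35 on the clock-negative arrays. The groups are far apart and each is tight, with means of 8.60 ± 0.044 and 7.36 ± 0.050 (SD, n = 3). The change was 1.24 ± 0.06 on the log2 scale (SE, limma adjusted p = 5.19e-07), which ranks 52 from the highest of 13956 genes. The second Mitf probe set, much dimmer, read 4.83, 4.44 and 4.21 against 3.66, 3.56 and 3.92. All 3 clock-positive values again lay above all 3 clock-negative values, by 0.78 ± 0.15 on average (limma adjusted p = 0.00211 with every probe set tested on its own and no filter on dim genes). Which exons or which start the probe sets report was not analysed here.

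Sox10, the factor that switches on Mitf in the neural crest, read 7.02, 6.88 and 6.98 in clock-positive and 7.09, 7.32 and 7.17 in clock-negative cells. The ranges were close but did not overlap. It fell by 0.23 ± 0.08 (limma adjusted p = 0.0209), the opposite direction to Mitf.

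Among the melanosome proteins, Mlana (Melan-A) read 6.89, 6.94 and 7.10 in clock-positive and 7.92, 7.56 and 7.69 in clock-negative cells. Every clock-positive array was lower than every clock-negative array, and Mlana fell by 0.75 ± 0.09 (limma adjusted p = 1.46e-04), ranking 121 from the lowest. Pmel, which forms the fibrils on which melanin is laid down, read 7.37, 7.46 and 7.52 against 8.09, 8.02 and 8.01. Again no array of one group reached the range of the other, and Pmel fell by 0.59 ± 0.07 (limma adjusted p = 6.58e-05).

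The pigment enzymes were dimmer. Dct, dopachrome tautomerase and an early marker of the lineage, read 6.66, 6.42 and 6.83 in clock-positive and 7.10, 6.99 and 6.71 in clock-negative cells. Its ranges overlapped, and it fell by 0.30 ± 0.12 with a limma adjusted p of 0.0459, just under the threshold, which it missed when clock-positive array 1 (0.0766) or 2 (0.177) or clock-negative array 1 (0.148) or 2 (0.111) was left out. Tyrp1, an enzyme of the same family, read 5.62, 5.91 and 5.74 against 6.31, 6.32 and 6.11, without overlap. With no filter on dim genes its change was −0.49 ± 0.09 (limma adjusted p = 0.00152), where 27.9% of 19937 genes were called lower. Tyr, tyrosinase, the rate-limiting enzyme of melanin synthesis, read 4.70, 4.62 and 4.58 against 4.67, 4.93 and 4.86, with overlapping ranges and a change of −0.19 ± 0.08 (limma adjusted p = 0.0616 with no filter).

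The receptors lay lower in clock-positive cells as well. Kit, the receptor of stem cell factor, read 6.39, 6.47 and 6.33 in clock-positive and 6.76, 6.85 and 6.68 in clock-negative cells. It fell by 0.37 ± 0.07 (limma adjusted p = 0.00138), with no overlap. Mc1r, the melanocortin receptor, read 6.36, 6.59 and 6.38 against 6.66, 6.85 and 6.78 and fell by 0.32 ± 0.08 (limma adjusted p = 0.00658). Ednrb, the endothelin receptor B, read 6.27, 6.29 and 6.24 against 6.48, 6.53 and 6.38 and fell by 0.20 ± 0.06 (limma adjusted p = 0.0186). Of the 8 members tested, all but Dct had ranges that did not overlap, as did 69.2% of all genes tested.

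The 7 members that fell did not stand equally far from other genes of their brightness. Genes with a mean of 6 to 7 had a median change of −0.20 and 49.9% of these 3156 genes were called lower; Dct, Kit, Mc1r and Ednrb lie in this band. Genes with a mean of 7 to 8 had a median change of 0.11, with 18.6% of 3867 called lower and 39.5% higher; Mitf, Mlana, Pmel and Sox10 lie there. Tyr and Tyrp1 belong to the 5981 genes left out as dim, whose median change with no filter was −0.21, with 51.7% called lower and 2.26% higher.

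**Figure D2:**
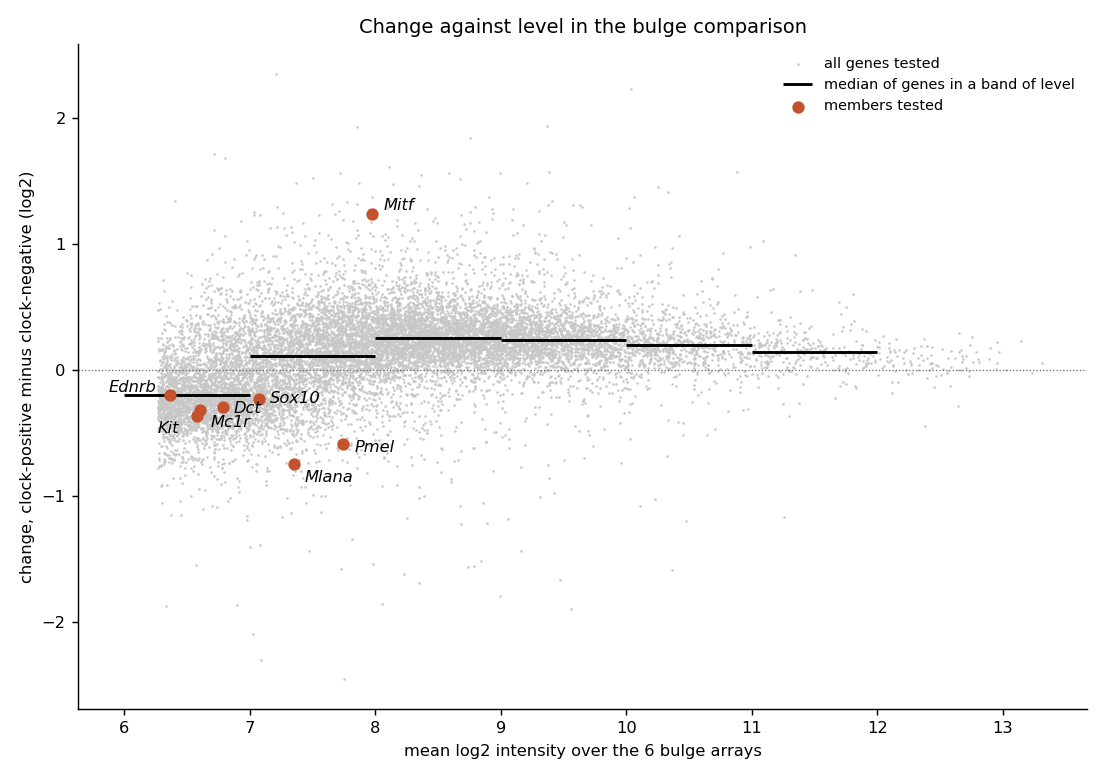
Change in the bulge (y axis, clock-positive minus clock-negative, log2) against mean log2 intensity over the 6 bulge arrays (x axis) for the 13956 genes tested (grey), with the median change in bands of level (black) and the 8 members tested (orange). Mitf at 1.24 lies far above and Mlana and Pmel well below the median of their band, while Dct, Kit, Mc1r and Ednrb lie at or below the median of theirs, −0.20.

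Under other scalings the calls of Mitf, Mlana, Pmel and Kit were kept and those of the other 4 members tested were lost, while the changes of all 8 moved. The median change of all genes was 0.147 as deposited, 0.289 after median centring, 0.069 after quantile normalization and 0.035 after cyclic loess. Of all calls, 71.2%, 86.8%, 70.8% and 61.5% were then higher. Mitf was called higher under all 4, with changes from 1.11 to 1.38, and Mlana (−0.75 to −0.60), Pmel (−0.68 to −0.45) and Kit (−0.37 to −0.18) were called lower under all 4. Relative to the median of all genes, Mitf lay 1.07 to 1.11 above, and Mlana lay at −0.89 to −0.77, Pmel at −0.74 to −0.71 and Kit at −0.52 to −0.22. Sox10, Dct, Mc1r and Ednrb were called lower only as deposited among these scalings, and the sign of Ednrb turned to 0.01 after quantile normalization and after cyclic loess. The calls of Mitf, Mlana, Pmel and Kit were also kept without any 1 array.

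**Figure D3:**
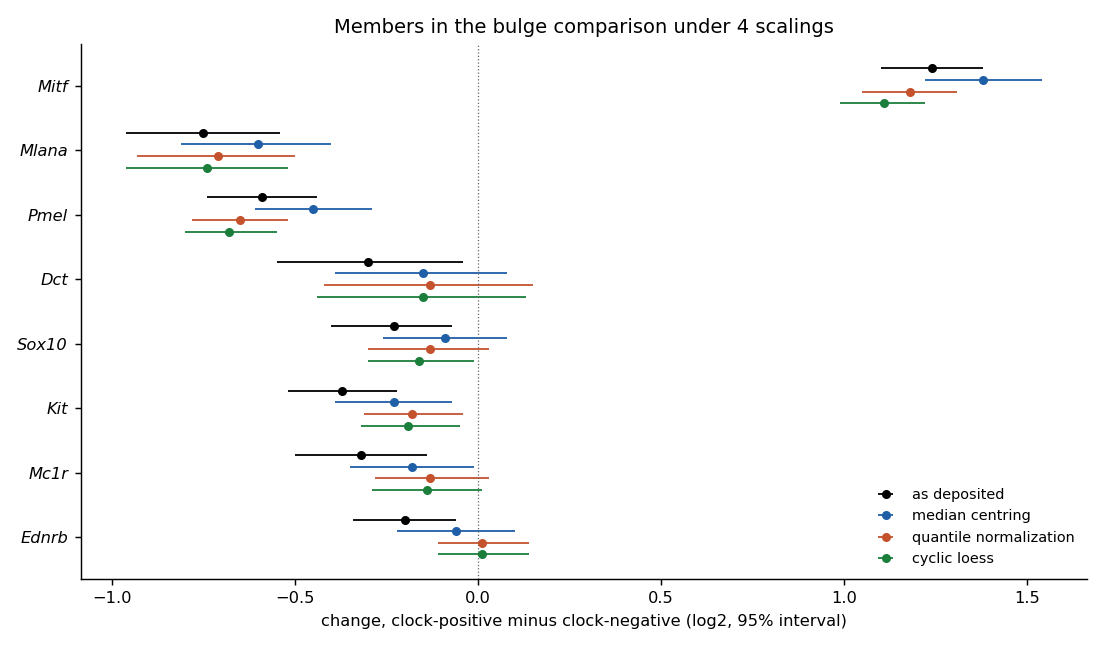
Change of the 8 members tested in the bulge (x axis, clock-positive minus clock-negative, log2, points with 95% intervals) under the deposited scale and 3 other scalings. The intervals of Mitf, Mlana, Pmel and Kit stay off 0 under all 4, and those of Ednrb reach across 0 under the other 3.

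Genes around these members were read as 5 lists. Of 14 transcription factors of the melanocyte lineage and of Mitf, 13 were tested, 7 rose and 3 fell, with a median change of 0.17. Over all genes tested the shares are 45.2% higher and 18.3% lower and the median is 0.147, so the list's counts and median lie near those of all genes. The 4 with the smallest p were Sox9 (0.83 ± 0.06), Tfap2b (0.75 ± 0.06), Snai2 (0.77 ± 0.07) and Lef1 (0.66 ± 0.07), each called higher under all 4 scalings. All 4 are also factors of hair follicle or epidermal keratinocytes, and Sox9 is itself in the list of bulge stem cell markers, of which 10 of 11 rose and 0 fell. The part of such keratinocytes in the changes of these 4 factors was not tested. The 3 that fell as deposited were Pax3 (−0.33 ± 0.07), which acts on Mitf together with SOX10, Irf4 (−0.32 ± 0.08), a partner of MITF at Tyr, and Tbx2 (−0.23 ± 0.08), and none of them kept its call under all 4 scalings. Pax3 read 6.20, 6.34 and 6.22 in clock-positive and 6.60, 6.68 and 6.48 in clock-negative cells, the same order as Sox10.

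Of the relatives of Mitf in the MiT family, Tfe3 rose by 0.31 ± 0.09 as deposited but not under every scaling, Tfeb was at 0.21 ± 0.09 (limma adjusted p = 0.0542) and Tfec was too dim to test. Of 14 targets of MITF outside pigment synthesis, 10 were tested, 6 rose and 0 fell, with a median of 0.26. Clcn7, a lysosomal chloride transporter (0.48 ± 0.08), Met, the receptor of hepatocyte growth factor (0.40 ± 0.08), Acp5, an acid phosphatase of osteoclasts (0.39 ± 0.06), and Bcl2, a survival factor (0.31 ± 0.08), were called higher under all 4 scalings. Cdk2 (0.30 ± 0.07) rose as deposited and did not keep its call under all of them. Dicer1, which cuts microRNA precursors, was the other that rose (0.22 ± 0.07), and its call was lost under other scalings. The remaining 4 were not called, and Diaph1 (−0.08 ± 0.06) and Cdkn2a (−0.16 ± 0.10) were below 0. Birc7 (−0.30 ± 0.07) and Ctsk (−0.31 ± 0.08) were left out as dim. With no filter they were lower (limma adjusted p = 0.00528 and 0.00665), in a range of brightness where 51.7% of genes were. All genes were called higher in 45.2%. The share was 65.2% for a mean of 8 to 9 and 66.3% for 9 to 10, the bands that hold Clcn7, Met, Acp5, Cdk2 and Dicer1. It was 39.5% for 7 to 8, where Bcl2 and Cdkn2a lie, and 11.9% for 6 to 7, where Ppargc1a lies. The list thus spans bands of unlike share, and 6 of 10 is not read as a result about these genes.

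Genes of melanosome assembly and transport, many of which also serve other cell types, were called higher more often than lower, as were all genes. Of 28 listed, 23 were tested, and 9 rose, beside 45.2% of all genes. Only 1 fell, beside 18.3% of all genes, and 13 were not called. Over all genes the share called lower was 49.9% for a mean of 6 to 7 and 18.6% for 7 to 8. It was 4.59% for 8 to 9 and 2.76% for 9 to 10. The list spans these and brighter bands, so its counts are not read as a result about these genes. The list's median was 0.15, that of all genes. Bloc1s6 (0.58 ± 0.08), Rab32 (0.51 ± 0.07), Bloc1s1 (0.40 ± 0.06), Cd63 (0.31 ± 0.07) and Hps3 (0.32 ± 0.07) were called higher under all 4 scalings. Rab27a, which moves melanosomes along actin and serves secretion in other cells, fell by 0.25 ± 0.07 as deposited but not under every scaling. The 5 genes of the list left out as dim all lay below 0 with no filter, and 4 were called lower, in a range of brightness where 51.7% of genes were. Among them Slc45a2, a melanosome transporter, read 6.07, 5.96 and 6.02 in clock-positive and 6.33, 6.60 and 6.42 in clock-negative cells, without overlap, a change of −0.43 ± 0.08 (limma adjusted p = 0.00169). Oca2, a melanosomal anion channel, was at −0.28 ± 0.07 (limma adjusted p = 0.007), the channel Trpm1 at −0.24 ± 0.07, the cystine transporter Slc7a11 at −0.20 ± 0.08 and the receptor Gpr143, which was not called, at −0.10 ± 0.08. Mlph, the partner of RAB27A, was at −0.18 ± 0.08 and Slc24a5, a melanosomal exchanger, at −0.08 ± 0.07, and neither passed.

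Among skin-made ligands and their partners, 12 of 15 listed genes were on the array by these symbols and 8 were tested; 4 rose, beside 45.2% of all genes, and 1 fell, beside 18.3%, with a median of 0.10. Kitl, stem cell factor and the ligand of KIT, rose by 0.90 ± 0.09 (limma adjusted p = 2.88e-05). It read 7.41, 7.47 and 7.58 in clock-positive and 6.75, 6.42 and 6.61 in clock-negative cells, so ligand and receptor stood in opposite order on these arrays. Ece1, which cuts endothelins from their precursors, rose by 0.40 ± 0.06, and both kept their call under all 4 scalings. Edn1 and Mgrn1 rose by 0.20 ± 0.07 each, and Corin, a protease that modifies coat colour, fell by 0.33 ± 0.11, all 3 as deposited but not under every scaling. Edn2 (−0.13 ± 0.08), Edn3 (−0.08 ± 0.08) and Erbb3 (−0.01 ± 0.06) were not called. Nrg1, Hgf, Pomc and Fgf2 were left out as dim. With no filter Nrg1 (−0.25 ± 0.06, limma adjusted p = 0.00682) and Hgf (−0.22 ± 0.06, limma adjusted p = 0.0127) were lower, in a range of brightness where 51.7% of genes were. Pomc (−0.19 ± 0.08) and Fgf2 (−0.18 ± 0.08) did not pass.

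Markers of the cell types that the sort could hold are given here beside the 45.2% of all genes called higher and 18.3% called lower. The array means take in every marker measured, also those left out as dim. All genes left out as dim had a median change of −0.21 with no filter. The 13 melanocyte markers, 7 of them members, averaged 6.19 to 6.24 on the clock-positive and 6.48 to 6.58 on the clock-negative arrays; of 7 tested, 5 fell and 0 rose. Those 5 are the members Mlana, Pmel, Kit, Sox10 and Dct, already counted above, and the other two, Gpnmb (−0.13 ± 0.08) and Slc24a5, were not called. T cell markers fell in 6 of 7 tested, 5 of them under all 4 scalings (array means 7.16 to 7.23 against 8.02 to 8.09). Of 9 markers of Langerhans cells and other myeloid types 6 fell and 2 rose, 5 and 2 of them under all 4 scalings (array means 6.87 to 6.91 against 7.11 to 7.14). Mast cell markers, a cell type that uses both Kit and Mitf, fell in 2 of 4 tested and rose in 0 (array means 5.49 to 5.53 against 5.65 to 5.75). These were Tpsb2 and Gata1, neither of which kept its call under all 4 scalings, and both lie in the band of 6 to 7 where 49.9% of genes were called lower. Schwann cell markers, which share Sox10, fell in 2 of 7 (Egr2 and Ngfr) and rose in 1 (Pmp22), and none of the 3 kept its call under all 4 scalings (array means 7.34 to 7.36 against 7.41 to 7.46). Endothelium markers rose in 9 of 10, 6 of them under all 4 scalings (array means 8.19 to 8.20 against 7.83 to 7.89). Dermal fibroblast markers rose in 2 and fell in 2 of 5, with 1 rise kept under all 4 (array means 6.76 to 6.83 against 6.68 to 6.76), and basal IFE markers rose in 2 of 8, both kept (array means 11.75 to 11.78 against 11.66 to 11.72). The part of these cell types in the members' changes was not tested.

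**Figure D4:**
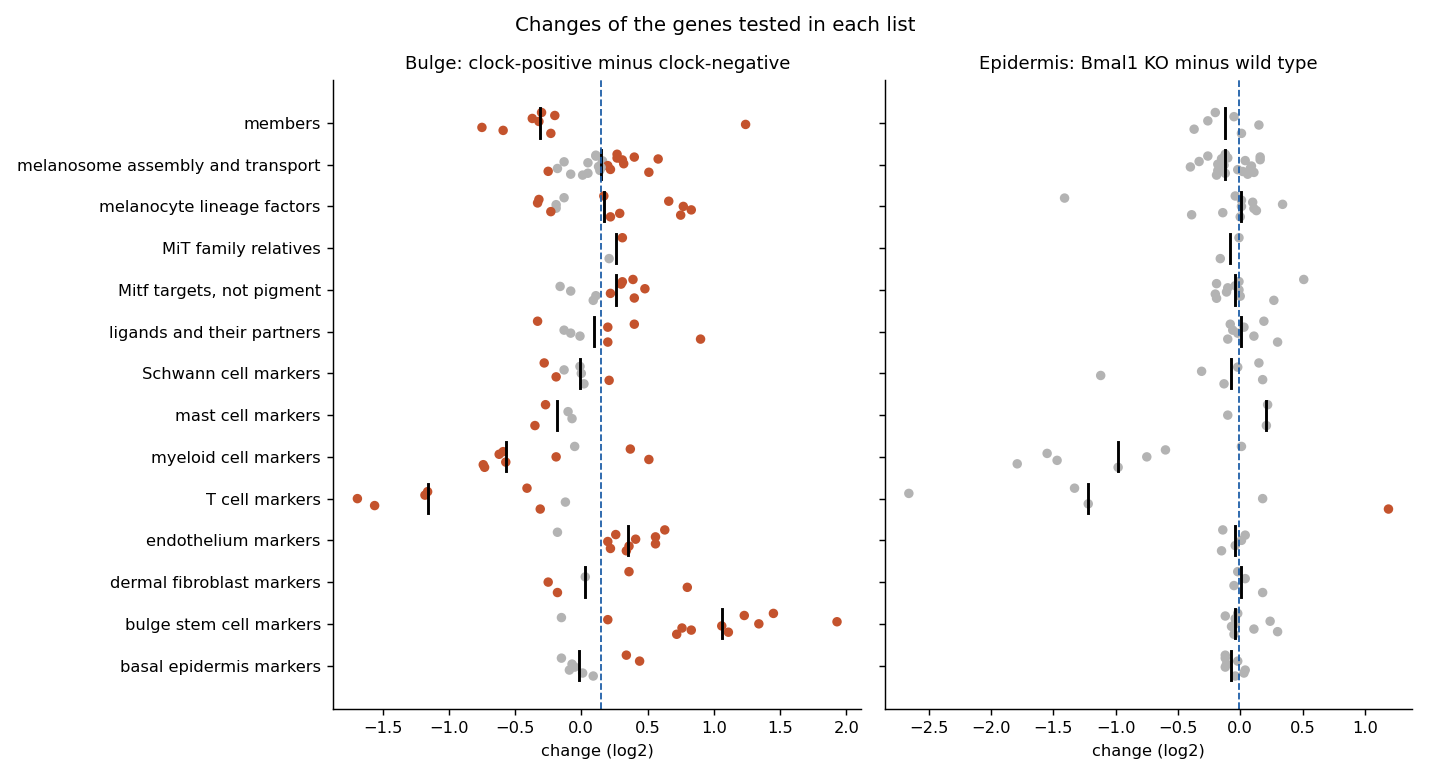
Change (x axis, log2) of every tested gene of the members and of 13 other lists, in the bulge (left, clock-positive minus clock-negative) and in the epidermis (right, Bmal1 KO minus wild type); the list of melanocyte markers, most of which are members or melanosome genes, is left out. Orange points passed an adjusted p under 0.05, grey points did not, black bars are list medians and the dashed line is the median of all genes; in the bulge the members lie below that line except Mitf, and in the epidermis no member passed.

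The epidermis comparison asks what differs in basal IFE cells without Bmal1. None of the 6 members bright enough to test passed (limma adjusted p from 0.335 to 0.997), beside 0.193% of 13956 genes, 27 in all (0.0788% higher and 0.115% lower), while 1111 genes had an unadjusted p under 0.05, among them Pmel. The members' median change was −0.12 on the log2 scale, beside −0.012 over all genes. Tyr, Tyrp1, Dct and Ednrb lay below the limit of 6.83 for this set.

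Mitf read 8.14, 8.20 and 8.34 in wild type and 8.30, 7.79 and 7.82 in Bmal1 KO. KO arrays 2 and 3 lay below all wild-type arrays and KO array 1 did not, and the change, KO minus wild type, was −0.26 ± 0.15 (95% interval −0.61 to 0.09, limma adjusted p = 0.809). Without KO array 1 it was −0.42 and without KO array 2 −0.17, the ends of the range over leaving out 1 array, and it passed in none of these fits. The second Mitf probe set read 4.76, 4.86 and 4.69 against 4.68, 4.50 and 4.42, a difference of −0.24 ± 0.10.

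Sox10 read 7.87, 7.83 and 7.87 in wild type and 7.95, 7.78 and 7.86 in KO, overlapping, with a difference of 0.01 ± 0.10 (95% interval −0.22 to 0.23). Mlana read 7.62, 7.54 and 7.59 in wild type and 7.66, 7.84 and 7.69 in KO, all KO arrays above all wild-type arrays by a small margin, with a difference of 0.15 ± 0.10 (limma adjusted p = 0.851). Pmel read 8.26, 8.42 and 8.24 in wild type and 7.81, 7.99 and 8.01 in KO. All 3 KO arrays were lower, by 0.37 ± 0.11 on average, with a limma p of 0.00863 before and 0.335 after adjustment; a fit that took its spread from all 12 arrays called it (adjusted p = 0.0396).

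Kit read 6.85, 6.94 and 7.04 in wild type and 6.73, 6.73 and 6.77 in KO, lower in all 3 KO arrays, by 0.20 ± 0.10 (limma adjusted p = 0.711). Its mean of 6.84 lies next to the limit of 6.83, and without wild-type array 2 or 3 it fell under it and was not tested. Mc1r read 7.42, 7.55 and 7.51 against 7.37, 7.51 and 7.45, a difference of −0.05 ± 0.10. Mlana, Pmel and Kit thus had ranges that did not overlap, 3 of 6 members tested, beside 12.7% of all genes tested.

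The 4 dim members overlapped between the genotypes. With no filter on dim genes the differences were −0.04 ± 0.10 for Tyr (5.66, 5.43 and 5.45 in wild type, 5.42, 5.50 and 5.50 in KO) and 0.02 ± 0.14 for Tyrp1 (6.51, 6.32 and 6.15 against 6.17, 6.57 and 6.31). Dct read 5.82, 5.92 and 6.04 against 5.84, 5.60 and 5.65, a difference of −0.23 ± 0.11. Ednrb read 6.95, 6.58 and 6.83 against 6.71, 6.73 and 7.01, a difference of 0.03 ± 0.13. The limma adjusted p was 0.758 or more for all 4.

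In the 5 lists around the members, 0 genes passed in the epidermis. The lowest adjusted p was that of Irf4, at −1.41 ± 0.24 (limma adjusted p = 0.0826), with 9.39, 10.05 and 9.92 in wild type and 8.55, 7.89 and 8.68 in KO. Irf4 is also a factor of lymphocytes and dendritic cells, and T cell markers averaged 7.89 to 8.88 on the wild-type and 7.72 to 7.76 on the KO arrays, and myeloid markers 6.84 to 7.83 and 6.68 to 6.82. The wild-type arrays thus spread widely. Of 5 T cell markers tested 0 were called lower and 1 higher, and of 7 myeloid markers tested 0 were called. The part of those cells in the Irf4 values was not tested. Among melanosome genes Lyst was at −0.40 ± 0.12 and Atp7a, a copper transporter, at −0.26 ± 0.12; among targets of MITF Acp5 was at 0.51 ± 0.22; among ligands Nrg1 was at 0.30 ± 0.11 and Kitl at 0.11 ± 0.17; none passed. Tfap2b was at −0.39 ± 0.10 and Snai2 at 0.34 ± 0.13, neither of which passed. Melanocyte markers averaged 6.91 to 6.98 on the wild-type and 6.78 to 6.93 on the KO arrays, with 0 of 7 called. Of the Schwann cell markers Ngfr was at −1.12 ± 0.18 (limma adjusted p = 0.0693), passing after quantile normalization and cyclic loess only among the scalings, and Thy1, listed with T cells and also a surface protein of other cells, rose by 1.19 ± 0.12 (limma adjusted p = 0.0155).

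**Figure D5:**
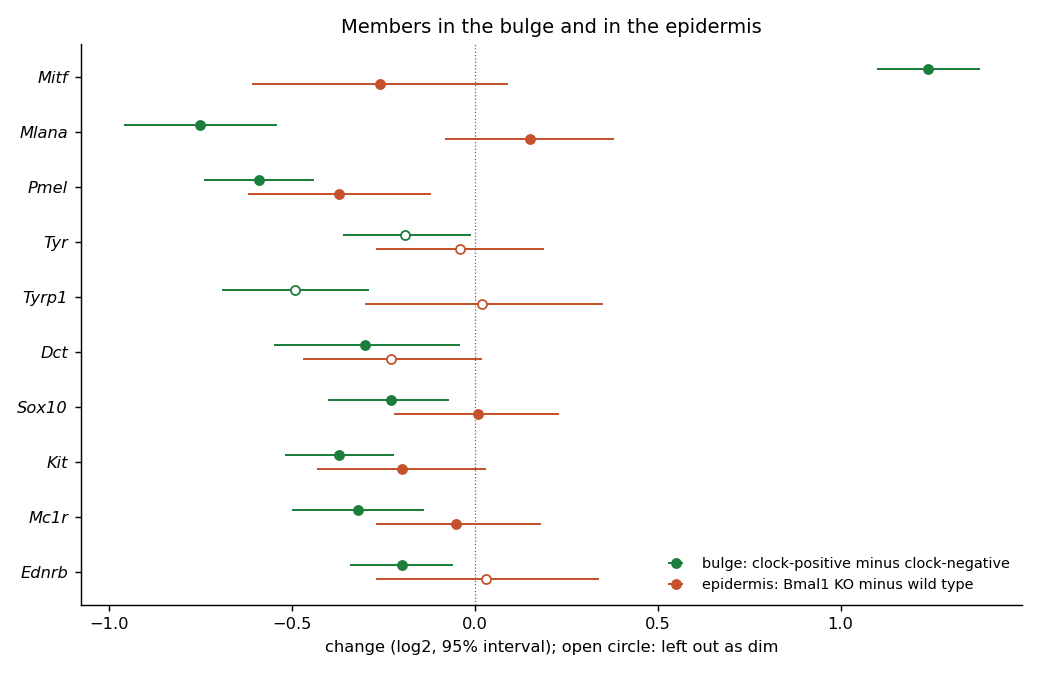
Change of the 10 members (x axis, log2, points with 95% intervals) in the bulge (green, clock-positive minus clock-negative) and in the epidermis (orange, Bmal1 KO minus wild type); open circles were left out as dim and are drawn from the fit with no filter. Mitf is at 1.24 in the bulge and −0.26 in the epidermis, and Pmel is below 0 in both.

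The third test asks whether the change from clock-negative to clock-positive cells in the bulge is the same as that from KO to wild type in the epidermis; Nr1d1 and Per1, above, each passed in only 1 of these comparisons. It uses all 12 arrays and 6 members, and tissue, age and the number of mice per pool differ between the sets as well. The changes differed for 4 of the 6 members, 1 upward and 3 downward, beside 16.7% of 13100 genes tested (10.7% upward and 6.02% downward). Mitf was 0.98 ± 0.17 more changed in the bulge than in the epidermis (limma adjusted p = 0.00209), where it was 1.24 higher with bright Venus and 0.26 higher in wild type. The dimmer second Mitf probe set differed by 0.55 ± 0.20 and did not pass (limma adjusted p = 0.0844, every probe set, no filter). Pmel differed by −0.96 ± 0.13 (limma adjusted p = 2.99e-04), since it was 0.59 lower with bright Venus but 0.37 higher in wild type. Mlana differed by −0.60 ± 0.14 (limma adjusted p = 0.0141) and Kit by −0.57 ± 0.12 (limma adjusted p = 0.00736). Mc1r at −0.37 ± 0.13 (limma adjusted p = 0.0637) and Sox10 at −0.23 ± 0.12 (limma adjusted p = 0.192) did not pass. Of the genes around them, Kitl differed by 1.01 ± 0.20 (limma adjusted p = 0.00608), Snai2 by 1.11 ± 0.15, Sox9 by 0.94 ± 0.18, Lef1 by 0.68 ± 0.12 and Irf4 by −1.73 ± 0.27, each called under all 4 scalings.

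Genes whose 12 values follow those of Mitf most closely were found by the root mean square difference of log2 values. Values were centred on the mean of each set of 6 arrays, for the 13100 genes tested in both comparisons. Unnamed gene models, accession symbols, microRNAs and olfactory receptors were then passed over, so the genes below are the closest of the rest. The closest were Plpp1, a lipid phosphatase (0.084), Dpyd, the first enzyme of pyrimidine breakdown (0.096), Txndc16 (0.097), the cation channel Trpv4 (0.099) and the matrix protein Hmcn1 (0.101). Their bulge changes ran from 1.05 to 1.27 and their epidermis changes from −0.28 to −0.06. No member and no gene of the 5 lists is among these 5. For the members this was fixed in advance, because every other member tested fell in the bulge, where Mitf rose. With only 5 genes of 13100 named, it says little about the lists. Closest to Mlana were Calhm4 (0.083), Elmod1 (0.116), the phospholipase Pla2g5 (0.121), the cornified envelope gene Cnfn (0.129) and Il1r2, a decoy receptor of interleukin 1 (0.132). Their bulge changes ran from −0.82 to −0.50. No other member is among them, which again says little with only 5 genes named.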

How the data were processed

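The authors deposited log2 intensities. RMA is the tool named for them, per the submitters' processing notes, with version and settings not given in the sources used here. Before labelling, whole-transcriptome amplification of total RNA was done, per the labels' protocols. Values are present for 34760 probe sets in the bulge set, 28853 in the epidermis set and 28101 in both. An array has no read depth, and the number of arrays limits the precision.

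Probe sets were named from the platform table: of 35512, 21789 have 1 symbol, 1621 several and 12102 none. Where a symbol had several probe sets (999 symbols), one measured on all 12 arrays was preferred, then the brightest. The 30% of genes with the lowest mean in a comparison were left out. limma 3.58.1 in R 4.3.3 (lmFit, eBayes without trend, two-sided) was fitted to all remaining genes, with Benjamini-Hochberg adjustment and a threshold of 0.05, and checked on simulated data. Values after ± are standard errors unless marked SD. No array duplicated another.

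The members, the 5 pathway lists and the 9 marker lists were chosen with earlier results of these data known, so counts over them are descriptions, with no test. All 10 members were named, and of each other list up to 4 genes with the smallest p in each comparison. Other genes were named after their values were seen. In the bulge these were Hps3, Rab27a, Bcl2, Pax3, Irf4, Tbx2, Dicer1, Diaph1, Cdkn2a, Ppargc1a, Birc7, Ctsk, Mlph, Slc24a5, Gpnmb and the 5 dim melanosome genes. Edn1, Edn2, Edn3, Erbb3, Nrg1, Hgf, Pomc and Fgf2 in the bulge, Kitl in the epidermis, and Thy1 were also named in this way. Alternatives were 3 other scalings, 2 other filters, a replicate block, every probe set on its own, the spread of all 12 arrays, a trend in eBayes and leaving out each array. Every probe set with no filter was added after seeing the data. Deviations of same-numbered arrays had correlations of 0.24, 0.26 and −0.06 in the bulge and −0.44, 0.04 and −0.52 in the epidermis. Those of unlike-numbered arrays ran from −0.32 to 0.13 in the bulge and from −0.31 to 0.54 in the epidermis. These values do not settle whether bulge samples of the same number were paired. The main fits did not pair them, and the fit with the replicate number as a block is given below.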

Additional observations from a re-analysis of the deposited data

Results flagged for a closer look

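The bulge change (bright minus dim Venus) was tested against the epidermis change (wild type minus Bmal1 KO), and the difference passed in limma for 4 of the 6 members tested. Mitf differed by 0.98 (adjusted p = 0.00209), with 1.24 in the bulge and −0.26 for KO minus wild type. Its dimmer second probe set differed by 0.55 and did not pass (limma adjusted p = 0.0844, every probe set, no filter). Pmel differed by −0.96 (limma adjusted p = 2.99e-04), with −0.59 in the bulge and −0.37 for KO minus wild type. The test takes the epidermis change as wild type minus KO, so the sign of that second value turns. In the same order, Mlana differed by −0.60 (limma adjusted p = 0.0141), with −0.75 and 0.15 for KO minus wild type. Kit differed by −0.57 (limma adjusted p = 0.00736), with −0.37 and −0.20 for KO minus wild type. The 4 held their calls under all 4 scalings. Groups of 3 arrays are too small for a check of single outlying arrays.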

How the results depend on the processing

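Mitf, Mlana, Pmel and Kit kept their direction and call in the bulge under every alternative that tested them, at 1.11 to 1.38, −0.83 to −0.60, −0.68 to −0.45 and −0.41 to −0.18. Dct kept its call under 4 of 15 alternatives, Sox10 under 10, Ednrb under 9 and Mc1r under 12; Ednrb turned to 0.01 after quantile normalization and after cyclic loess. Of the members tested, 3 were lower after median centring, quantile normalization or cyclic loess, and 2 (of 3 tested) with the lowest 50% left out. Leaving out 1 array gave 5 to 7 lower and 7132 to 9805 genes called; 5809 were called after quantile normalization, 5739 after cyclic loess and 5301 with the spread of all 12 arrays.

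In the epidermis 0 members passed except 1, Pmel, with the spread of all 12 arrays, which called 407 genes. The 27 genes became 49 after quantile normalization, 85 after cyclic loess, 16 with no filter, 47 with the lowest 50% left out, 17 with every probe set and no filter, 57 with a trend and 7 to 98 without 1 array. For the difference, the lowest 50% left out gave 1 member lower (of 2 tested) and 1351 genes, and leaving out 1 array gave 2 to 4 members lower and 1048 to 3958 genes; Mc1r passed without clock-negative array 1 (adjusted p = 0.048), and Kit was too dim to test without wild-type array 2 or 3. With the replicate number as a block, 9351 genes passed in the bulge, 3 in the epidermis and 567 in the difference, where Mlana missed (adjusted p = 0.0792); it changed no other member's call. The causes were not tested. The dim members Tyr and Tyrp1 have no measure of background here.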
